A study of Mus musculus with 4 samples.

Results

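The predicted small RNAs are the rows of the deposited miRNA table that carry no miRBase name and whose identifiers mark them as predictions made from the sequenced reads. They number 532 of the 2280 rows, beside 946 rows with a mouse miRNA name and 802 rows named without the mouse prefix. All members were taken by that identifier alone, whatever their reads. Each has a number and an arm, 5p or 3p, for the side of the predicted hairpin it comes from, so that m0400-3p and m0400-5p would be the arms of one hairpin (the leading word of each identifier is left off here). The members come from 486 hairpin numbers, with 305 rows for the 3p arm and 227 for the 5p arm.

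The libraries come from N2a, a mouse neuroblastoma cell line labelled C57BL/6, cultured untreated or with 300 µM manganese for 48 h in MEM medium. Manganese is an essential metal that harms neurons in excess. The treatment text is the same for every library, so only the titles tell the untreated library from the Mn-treated one. Each condition had 1 small RNA library and 1 total RNA library depleted of ribosomal RNA, which gives no estimate of spread and no test. The small RNA libraries held 10479102 (untreated) and 9943263 (Mn-treated) reads in the miRNA table. In the total RNA libraries, with 13972437 and 14606961 reads on genes, the sympathetic lineage gene Hand2 had 2674 and 2951 reads and the neuronal tubulin gene Tubb3 had 33400 and 33715. Other genes of this kind differed more between the libraries, with Gap43 at 261 and 578 reads, Th at 88 and 173 and Isl1 at 252 and 143, and their part in the results was not tested. The neurofilament gene Nefl was listed at 0 in both, as was the leukocyte gene Ptprc, and the glial gene Gfap had 3 and 4 reads. The endothelial gene Pecam1 had 68 and 76 reads and the fibroblast gene Col1a1 had 42 and 33. Fewer cells and less RNA per cell cannot be told apart in such bulk samples.

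A microRNA is cut from a hairpin in a longer transcript. Drosha with Dgcr8 frees the hairpin in the nucleus, exportin 5 carries it to the cytoplasm, Dicer removes its loop, and an Argonaute protein keeps one strand, whose bases 2 to 8, the seed, pair with target messages. Prediction programs look for this pattern in small RNA reads: a genomic hairpin whose reads pile up on one or both arms with sharp ends. Pieces of other structured RNAs, such as small nucleolar RNAs, can give similar piles, so a predicted entry is a candidate and not an established miRNA.

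The predicted small RNAs with most reads are printed first because they hold most of the signal. Capitals mark the seed, and letters are written 5′ to 3′ as deposited, with T for U.
m0400-3p: tGATATAGccaagcccgactgt
m0083-5p: tCTGGACAcatgtggctttt
m0482-3p: gTATGTTGtgtgcagtgctg
m0278-3p: tGGGGCTCtgcagactcaccgt
m0133-3p: aGCCATGAcggaagactgtgtt
m0013-5p: tGGATGTGtgatgagatgaggc
m0034-3p: tGCAATGAtgatgaaactaga
m0390-5p: tTGAAATGgggactgccctc
m0096-3p: tGGAAGGAtgagtggctgacc
The sequence of m0133-3p is also listed as m0132-3p with the same counts, so these rows show 1 sequence placed at more than 1 hairpin. Of these seeds, that of m0390-5p is also the seed of mouse miR-203-3p and that of m0096-3p is the seed of miR-12201-5p.

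The members with the highest and lowest ratios between the libraries, among those with 20 or more reads in sum, are shown because the comparison turns on them. Capitals again mark the seed. The first 6 were higher in the Mn-treated library and the last 6 lower.
m0120-3p: tCGGTCCGagcctgggtctccctc
m0239-3p: aCGTGACCatttctgcccaatt
m0322-3p: tGCCTCTGctctcctcctgacg
m0093-5p: cTAAGCATactctatcatatat
m0197-3p: tGTGATTAggtgggaagactc
m0146-5p: aCTCTCTCactctgcatggttac
m0106-5p: cTGTGTGCtagtgtctcgcttt
m0454-5p: cTCTCTGAtgtgaatctgatg
m0401-3p: cTCTAGCCagggtctgactac
m0229-3p: aTGTATGAtgtgactctgacc
m0379-3p: gACCATGAtgttttctgaat
m0480-3p: tTTGGTGCtctggctcagacag

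Predicted small RNAs made up a very small share of the small RNA reads, and that share was nearly the same in the untreated and the Mn-treated library. They took 13180 of the reads in the untreated library, or 0.126% (95% exact binomial interval 0.124% to 0.128%). In the Mn-treated library they took 12649 reads, or 0.127% (0.125% to 0.129%). These intervals overlap. They cover counting error only, since reads copied by PCR without molecular identifiers are not independent molecules.

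Most of these reads lay on a few sequences. Of the 25829 member reads, 20.8% fell on m0400-3p, 40.0% on the first 2 members together and 57.3% on the first 10 rows. The most abundant, m0400-3p, had 2272 reads untreated and 3112 with manganese, and ranked 170 in the whole table. The next, m0083-5p, had 2576 and 2372 reads and ranked 176. The third, m0482-3p, had 644 and 481 reads and ranked 312. These 3 thus lay in the upper part of the table, while the list as a whole was sparse. The median member had 9 reads over both libraries (quartiles 6 and 20), against 60.5 for rows with a mouse miRNA name.

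Of the most abundant members only m0400-3p stood higher in the Mn-treated library beyond its counting interval. Its log2 ratio (Mn-treated over untreated, each count plus 0.5 over its column total) was 0.53, with a 95% counting interval of 0.45 to 0.61. For m0083-5p the log2 ratio was -0.04 (-0.12 to 0.04), which spans no difference. For m0482-3p it was -0.34 (-0.52 to -0.17), lower in the Mn-treated library. The other 7 of the 10 rows, which include the shared sequence of m0132-3p and m0133-3p at 303 and 256 reads, had between 139 and 322 reads in the untreated library and between 150 and 279 in the Mn-treated one. Among them m0278-3p had 322 and 279 reads, m0013-5p 290 and 228, m0034-3p 207 and 205, m0390-5p 193 and 204, and m0096-3p 139 and 150. The interval of m0013-5p lay just below 0 (log2 ratio -0.27, -0.53 to -0.02), and those of the other rows among these 7 spanned 0. None of these 10 reached 2-fold. Without m0400-3p and m0083-5p the members' share of reads was 0.0795% untreated and 0.0721% with manganese.

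**Figure D1:**
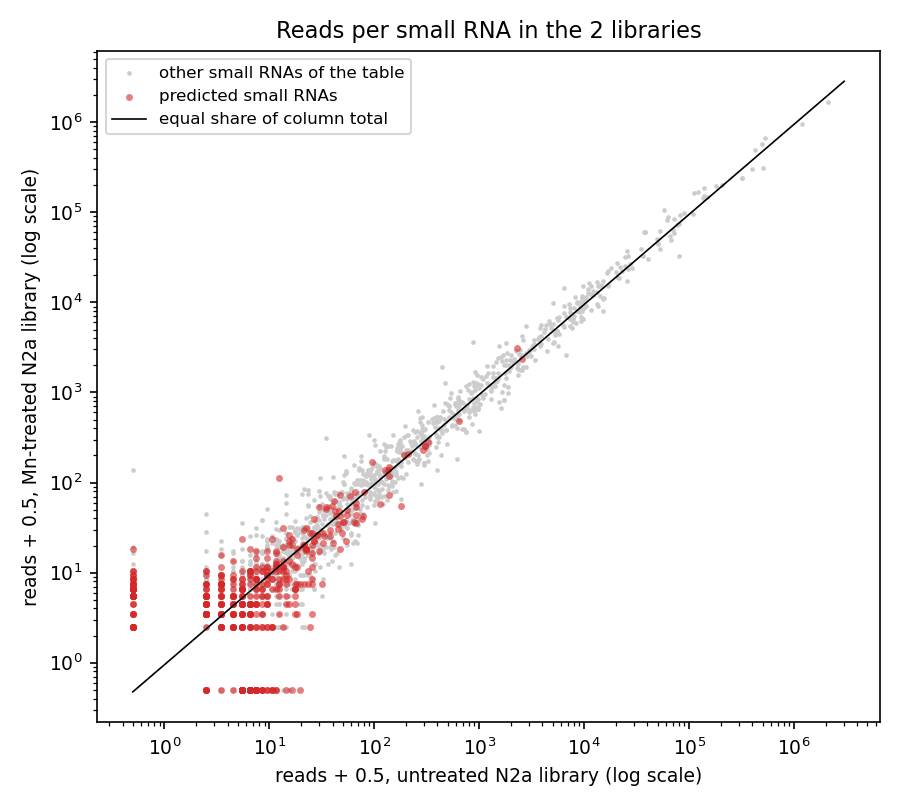
Reads of each small RNA plus 0.5 in the untreated (x) and the Mn-treated (y) library, both on log axes, for the 532 predicted small RNAs (red) and all other rows of the table (grey). The line marks an equal share of the column totals of 10479102 and 9943263 reads, and most predicted small RNAs sit at the low end, with a median of 9 reads in sum.

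Most members had reads in both libraries. There were 381 (71.6%) in both, 93 (17.5%) in the untreated library only and 58 (10.9%) in the Mn-treated library only. Over the whole table these shares were 71.8%, 13.8% and 14.4%, so the members' share in both was near that of the table. For rows named without the prefix they were 62.8%, 16.2% and 20.9%. Among rows with a mouse miRNA name, which hold more reads, 753 of 946 were in both, 91 untreated only and 102 with manganese only. Members missing from 1 library had few reads in the other. The highest of those seen untreated only was m0372-3p with 19 reads, followed by m0315-3p with 16 and m0271-5p with 14. On the other side m0308-3p had 18 reads in the Mn-treated library and was listed at 0 untreated, followed by m0410-3p and m0450-3p with 10 each. The table holds no value of 1, and its smallest value above 0 is 2, so a listed 0 may stand for a read that was not listed. No fold or upper limit is therefore given against a 0. No member with 20 or more reads was missing from either library.

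Comparison of the libraries was limited to members with 20 or more reads in sum. There were 137 of them (25.8%), or 132 distinct sequences, and 395 members lay below. Just inside that limit were m0236-3p with 12 and 8 reads and m0356-3p with 9 and 11. Just outside were m0021-3p with 14 and 5 and m0027-3p with 12 and 7. Among rows with a mouse miRNA name 605 (64.0%) reached this depth.

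At this depth more members passed 2-fold on the lower side than on the higher side with manganese. At least 2-fold higher were 7 members (5.11%), against 8.49% of the 1084 small RNAs of the whole table at this depth. At least 2-fold lower were 22 members (16.1%), against 6.55% of the whole table. The other 108 stayed within 2-fold. The median log2 ratio was -0.16 (quartiles -0.68 and 0.24, range -3.22 to 3.26), beside 0.09 over the whole table, 0.07 over the mouse miRNA names and 0.29 over the names without the prefix. Of the 137, 83 lay below a log2 ratio of 0 and 54 above it, and 94 lay below the median of the whole table. These are counts over members of 1 pair of libraries, not a test.

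Read depth differs between the classes and moves with how many rows pass 2-fold. In the band of 20 to 100 reads, which held 107 of the 137 members, 6 members were at least 2-fold higher (5.61%) and 21 lower (19.6%). In the same band 20 of 173 mouse miRNA names were higher (11.6%) and 20 lower (11.6%), and of 133 names without the prefix 28 were higher and 19 lower. The median log2 ratio in this band was -0.18 for the predicted and 0.08 for the mouse-named rows. Over all 137, both arms had more members lower than higher, with 3 higher and 11 lower of 58 members on the 5p arm and 4 higher and 11 lower of 79 on the 3p arm.

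**Figure D2:**
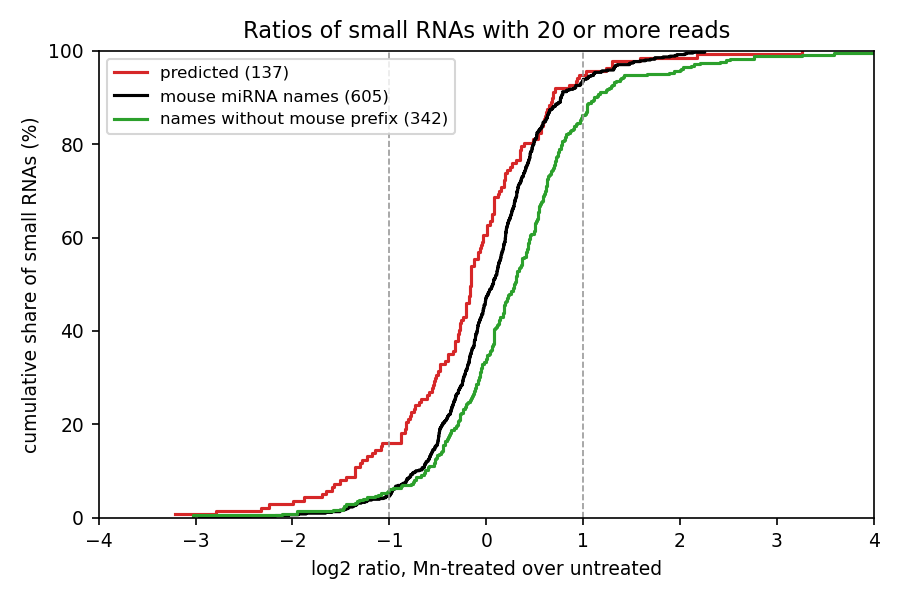
Cumulative share of small RNAs (y, percent) by log2 ratio of Mn-treated over untreated (x), for rows with 20 or more reads: 137 predicted, 605 with mouse miRNA names and 342 named without the mouse prefix. Dashed lines mark 2-fold; the curve of the predicted rows lies to the left, with a median of -0.16 against 0.07 and 0.29, and the x axis ends at 4, so rows named without the prefix beyond it are not drawn.

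Counting error alone was wide for most of these members. The 95% counting interval lay wholly above 0 for 12 of the 137 and wholly below 0 for 29. Of the 1084 rows of the whole table at this depth, 349 lay wholly above 0 and 249 wholly below. There, 31 lay wholly beyond 2-fold on the higher side and 16 on the lower. In the band of 20 to 100 reads, 7 of 107 members lay wholly above 0 and 21 wholly below, against 21 and 23 of 173 mouse-named rows. Only 1 member had an interval wholly beyond 2-fold on the higher side, m0120-3p, with 12 reads untreated and 113 with manganese (log2 ratio 3.26, interval 2.45 to 4.31). On the lower side 3 did. These were m0480-3p with 24 and 2 reads (-3.22, -6.64 to -1.50), m0379-3p with 25 and 3 (-2.79, -5.35 to -1.27) and m0246-5p with 180 and 54 (-1.65, -2.13 to -1.22). The last of these was named after its values were seen. It is by reads the best measured member past 2-fold on the lower side.

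The other named members past 2-fold rested on few reads. Higher with manganese were m0239-3p with 5 and 23 reads (2.17, 0.85 to 4.03), m0322-3p with 6 and 18 (1.58, 0.27 to 3.28), m0093-5p with 13 and 31 (1.30, 0.35 to 2.39), m0197-3p with 7 and 17 (1.30, 0.01 to 2.87) and m0146-5p with 10 and 23 (1.24, 0.15 to 2.51). Lower with manganese were m0229-3p with 18 and 3 reads (-2.33, -4.92 to -0.73), m0401-3p with 17 and 3 (-2.25, -4.84 to -0.64), m0454-5p with 31 and 7 (-1.99, -3.50 to -0.86) and m0106-5p with 17 and 4 (-1.88, -4.04 to -0.40). All 9 intervals left out 0 and reached within 2-fold.

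**Figure D3:**
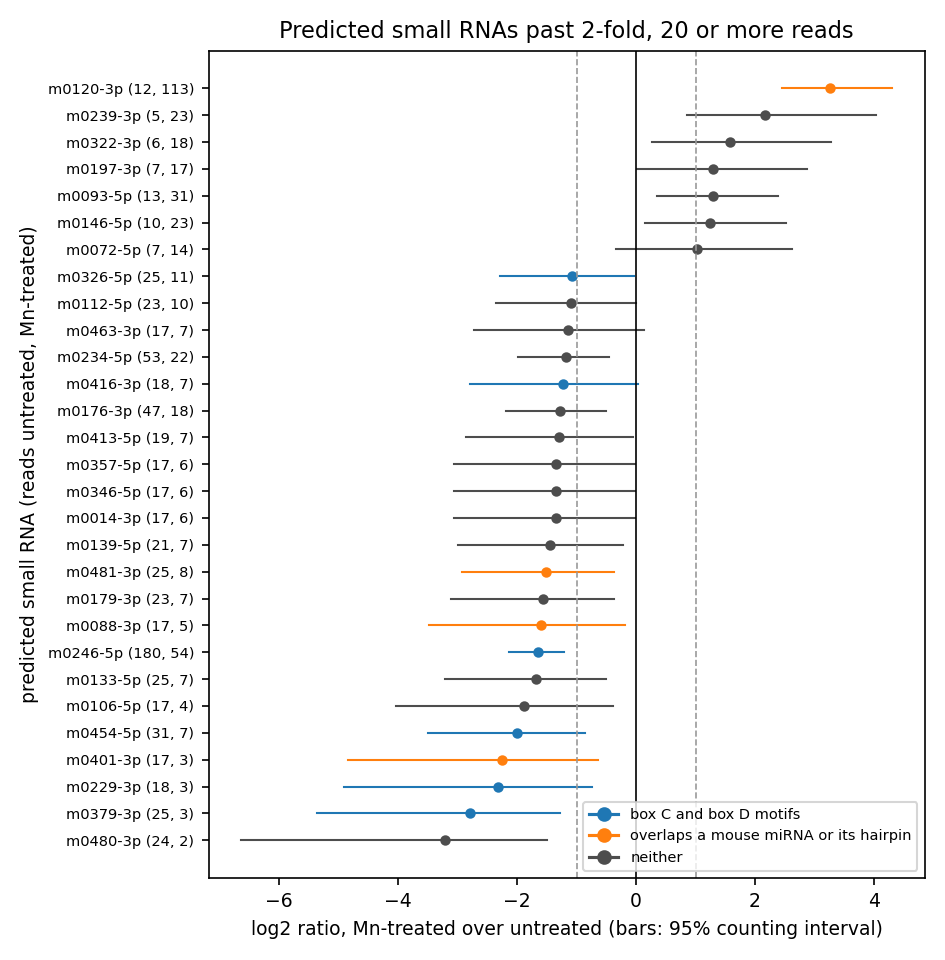
The 7 members at least 2-fold higher and the 22 at least 2-fold lower with manganese, with 20 or more reads in sum. Points give the log2 ratio (x), bars its 95% counting interval and labels the reads in the untreated and the Mn-treated library. Dashed lines mark 2-fold. Blue marks the 6 members with box C and box D letters, all on the lower side. Those letters were noticed in sequences that included the lowest ratios. Orange marks the 4 that overlap a known mouse miRNA or its hairpin, and grey the rest.

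In length the members were near the mouse-named rows, which the prediction may itself select for. Their median length was 22 bases (18 to 26), and 83.6% were 21 to 23 bases long, against 88.2% of the mouse-named rows and 57.7% of the rows named without the prefix. At exactly 22 bases were 35.5% of the members, against 51.1% of the mouse-named rows. The first base was T in 53.8%, against 44.5% of the mouse-named rows and 42.4% of those without the prefix. A first U is the base that Argonaute proteins prefer. Median GC content was 54.2%. On the 3p arm 23 members (7.54%) ended in CAG, the letters of a splice acceptor and so the end of a mirtron, a hairpin that is itself a short intron, against 51 (11.4%) of mouse-named 3p rows. On the 5p arm 9 (3.96%) began with GTG, against 2.80% of mouse-named 5p rows.

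**Figure D4:**
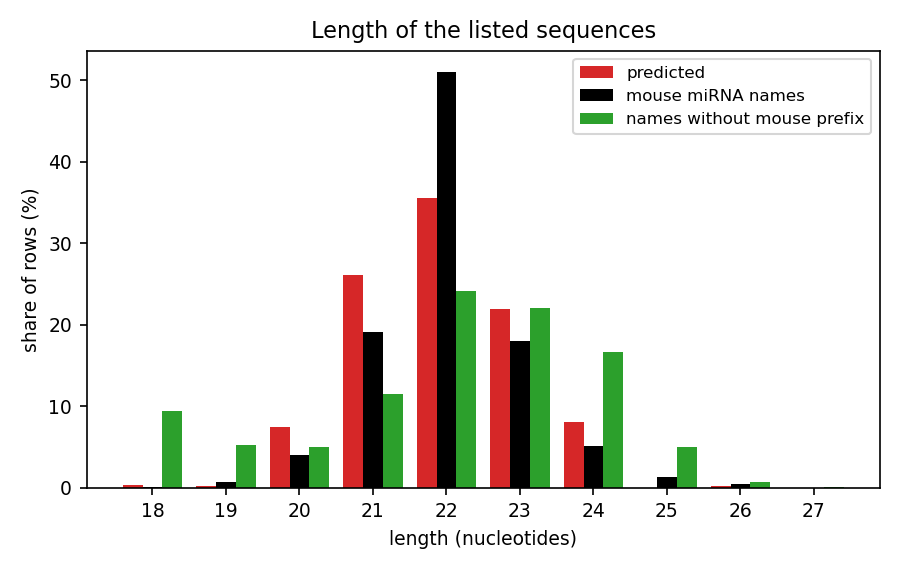
Share of rows (y, percent) by length in nucleotides (x) for the predicted rows (red), the mouse miRNA names (black) and the names without the mouse prefix (green). The predicted rows peak at 22 nucleotides, as the mouse names do, with 83.6% at 21 to 23 against 88.2% and 57.7%.

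A group of members carried the letters of C/D small nucleolar RNAs. These RNAs guide methylation of ribosomal RNA and are marked by a box C (core letters TGATG in DNA) near the 5′ end and a box D (CTGA) near the 3′ end. The letters were noticed in the printed sequences and counted afterwards, on the listed strand only, and CTGA had to begin after TGATG ended. TGATG was in 64 members (12.0%), against 31 (3.28%) of the mouse-named rows and 34 (4.24%) of those named without the prefix. It began at base 6 or 7 in 49 of the 64. TGATG followed by CTGA was in 43 members (8.08%), against 6 (0.634%) of the mouse-named rows and 16 of the 802 rows named without the prefix. In 42 of the 43 the last CTGA began within the last 8 bases.

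The following members with both motifs are shown because they have most reads or pass 2-fold; capitals mark TGATG and CTGA.
m0105-5p: ttgTGATGatgttgatcCTGAac
m0246-5p: tccagTGATGagtctCTGAcg
m0373-3p: tgacaaTGATGacattcCTGAga
m0212-5p: agagaTGATGaagtCTGAtc
m0455-3p: ctTGATGatgctttctCTGAga
m0454-5p: ctctcTGATGtgaatCTGAtg
m0326-5p: taacaTGATGctcctCTGAgg
m0379-3p: gaccaTGATGttttCTGAat
m0416-3p: cgTGATGgatctgtCTGAgc
m0229-3p: atgtaTGATGtgactCTGAcc
m0372-3p: tccacgTGATGctgtCTGAgc
A match is a description of the letters, and no small nucleolar RNA sequence was used here to place them.

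The 43 members with both motifs had 952 reads untreated and 603 with manganese. None was seen in the Mn-treated library only, 6 were seen in the untreated library only, of which m0372-3p with 19 reads was the highest, and 37 were in both. Of the 18 with 20 or more reads, 6 were lower by 2-fold or more with manganese and 0 higher. These 6 were m0246-5p, m0454-5p, m0326-5p (25 and 11 reads), m0379-3p, m0416-3p (18 and 7) and m0229-3p. Their median log2 ratio over the 18 was -0.49. Of the other 119 members at this depth 16 were lower and 7 higher, with a median of -0.16. So the lower side of the comparison held members with and without these letters. The letters were noticed in printed sequences that included the 6 lowest ratios, among them m0454-5p, m0379-3p and m0229-3p. How the letters were found thus fixes part of this difference in ratios, which says nothing about such members as a class. Of the 18 with both motifs, 5 had 100 or more reads in sum. Below 0, with intervals that left out 0, were m0246-5p with 180 and 54 reads (-1.65, -2.13 to -1.22) and m0455-3p with 78 and 42 (-0.81, -1.39 to -0.26). The intervals of m0105-5p with 139 and 118 reads (-0.16, -0.53 to 0.20) and m0212-5p with 67 and 53 (-0.26, -0.81 to 0.28) spanned 0. Only m0373-3p lay above 0, with 65 and 79 reads (0.36, -0.13 to 0.85), and its interval spanned 0 too.

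For part of the list the data go against the description as predicted and unnamed. At least 16 bases in a row were shared with a mouse-named row of the same table by 29 members, and 22 lay inside a mouse miRNA hairpin of RefSeq (GRCm38.p6) on the same strand. Together these were 33 members (6.20%), of which 15 had 20 or more reads. None of the 532 was identical in sequence to a row outside the list, so each of these 33 differs from the named miRNA in its ends or covers another stretch of the hairpin. A match on the strand opposite a hairpin, seen for 7 members, was not itself counted. Leaving them out, 6 of 122 members were at least 2-fold higher and 19 lower, with a median of -0.16.

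The overlaps with a mouse miRNA that the results turn on are shown with the miRNA beneath. Capitals mark the bases both share.
m0120-3p: tcggTCCGAGCCTGGGTCTCCCTC
miR-615-3p: TCCGAGCCTGGGTCTCCCTCtt
m0353-3p: ccgTTTTTCATTATTGCTCCTGA
miR-335-3p: TTTTTCATTATTGCTCCTGAcc
m0481-3p: tcaAAACATGAAGCGCTGCAAC
miR-322-3p: AAACATGAAGCGCTGCAACac
m0068-3p: TCGATCGGTCGGTCGGTcagt
miR-341-3p: tcggTCGATCGGTCGGTCGGT
m0448-3p: tccACGGGTTAGGCTCTTGGGA
miR-125b-1-3p: ACGGGTTAGGCTCTTGGGAgct
m0120-3p begins 4 bases upstream of miR-615-3p, and m0353-3p, m0481-3p and m0448-3p each begin 3 bases upstream of theirs, while m0068-3p begins 4 bases downstream. Such a shift moves the window of bases 2 to 8.

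The member with the highest ratio was thus one that overlaps a known miRNA. m0120-3p had 12 and 113 reads, while miR-615-3p, encoded within a Hox gene cluster, had 25511 and 37016 (log2 ratio 0.61, 0.59 to 0.64). The member stood at 0.0470% of the miRNA's reads untreated and 0.305% with manganese. The intervals of the pair did not overlap. The same held for m0353-3p (chr6:30741351-30741373, plus strand, in the Mir335 hairpin), with 94 and 170 reads (0.93, 0.56 to 1.31), against miR-335-3p with 52196 and 39222 (-0.34, -0.36 to -0.32). In that pair the directions differed. It also held for m0481-3p (chrX:53054271-53054292, minus strand, in the Mir322 hairpin), with 25 and 8 reads (-1.51, -2.93 to -0.37), against miR-322-3p with 2273 and 2163 (0.00, -0.08 to 0.09).

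In the other 10 overlapping pairs with 20 or more reads in the member, the intervals were not apart. Over all 13, the direction was the same in 8, among them m0154-3p, whose partner miR-693-3p had 6 reads untreated and was listed at 0 with manganese. Directions differed for m0135-5p with 29 and 53 reads (0.93, 0.27 to 1.65) beside miR-1224-5p with 90 and 78 (-0.13, -0.59 to 0.32). They differed too for m0080-3p (0.96, with miR-466k at -0.06) and m0181-5p (-0.18, with miR-378a-5p at 0.25), members whose intervals spanned 0. The closest pair in log2 ratio was m0230-3p (chr2:67675493-67675512, plus strand), with 126 and 139 reads (0.22), and miR-7224-3p with 246 and 272 (0.22), of which the member made up 51.2% untreated and 51.1% with manganese. Next came m0068-3p (chr12:109611560-109611580, plus strand), with 137 and 73 reads (-0.83), and miR-341-3p with 713 and 390 (-0.79). Near it on chromosome 12, in the imprinted Dlk1-Dio3 miRNA cluster, m0071-3p (chr12:109724367-109724388, plus strand) had 64 and 36 reads (-0.75) beside miR-300-3p with 2323 and 1572 (-0.49). In the same cluster m0067-5p (chr12:109595328-109595349, plus strand) had 66 and 59 reads (-0.08) beside miR-136-5p with 334 and 215 (-0.56). Elsewhere m0448-3p (chr9:41581977-41581998, plus strand) had 66 and 35 reads (-0.83) beside miR-125b-1-3p with 9246 and 6246 (-0.49).

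**Figure D5:**
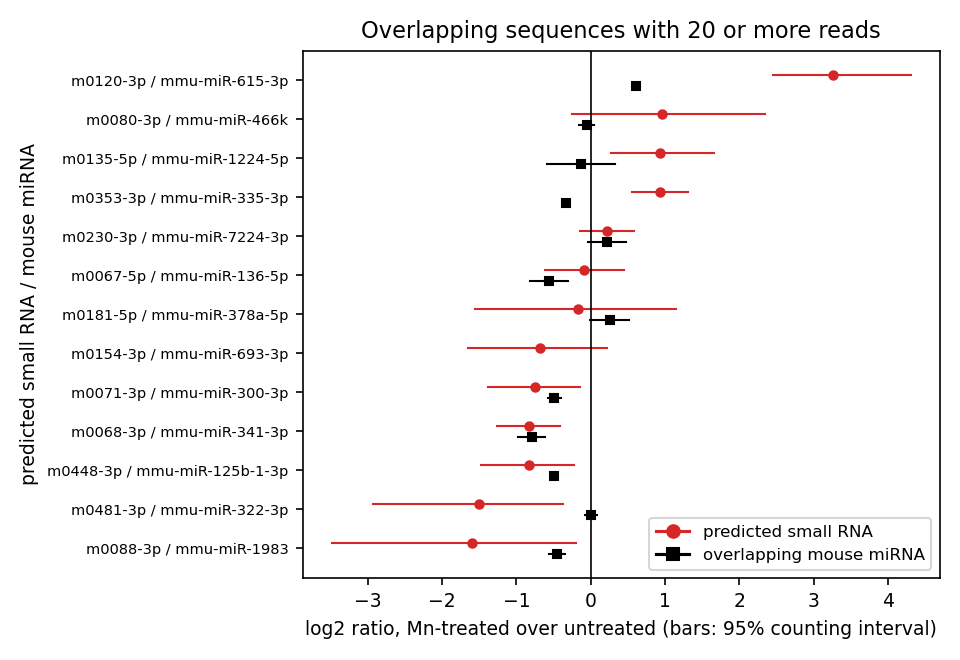
Log2 ratio of Mn-treated over untreated (x) with its 95% counting interval for the 13 members with 20 or more reads that share at least 16 bases with a mouse-named row (red circles) and for that miRNA (black squares). The intervals are apart for m0120-3p, m0353-3p and m0481-3p, and miR-693-3p, with 6 and 0 reads, is not drawn.

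Other members lay in or opposite hairpins of known miRNAs without sharing 16 bases with a mouse-named row of the table. m0401-3p, among the lowest ratios, lay at chr7:62085236-62085256 on the minus strand in the Mir344i hairpin and shared its seed with miR-344f-3p. m0049-5p (chr11:35616879-35616901, minus strand) lay opposite Mir218-2, a neuron-enriched miRNA gene, with 55 and 43 reads (log2 ratio -0.28). m0483-5p (chrX:66801990-66802011, minus strand) lay in the Mir881 hairpin and overlapped the known miR-881-5p, which has no row in the table. This member began upstream of miR-881-5p and had 135 and 139 reads (0.12, -0.23 to 0.47). Its partner m0483-3p (chrX:66801951-66801973, minus strand) had 9 and 5 reads and did overlap a named row, miR-881-3p, which had 2084986 and 1667451 reads and was the most abundant small RNA of the table. On this hairpin the 5p piece was thus the major predicted arm while the named 3p miRNA held nearly all reads.

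A share of the members carried the seed of a named mouse miRNA. Bases 2 to 8 of 91 members (17.1%) were those of at least 1 of the 1679 mature mouse names in RefSeq, whose 1398 distinct seeds are 8.53% of all 16384 possible 7-letter words. At 20 or more reads there were 27 such members, 23 of which lay in no known hairpin and overlapped no known miRNA. The members held 467 distinct seeds, and 29 seeds were shared by members of different sequence. Some of these, picked for the named miRNA they share the seed with, are printed with the seed in capitals, beside m0390-5p with the seed of miR-203-3p, printed above.
m0450-5p: cGTGACTGtacttggtatt
m0483-5p: tATTCAGAgagataacagtcac
m0326-5p: tAACATGAtgctcctctgagg
m0133-5p: gACTGTGTtctgttgttggtgc
m0409-3p: tCTGTTGCtcccctctgccaac
The seed of m0450-5p is that of miR-134-5p, that of m0483-5p is shared by miR-743a-5p and miR-871-5p, that of m0326-5p is the seed of miR-322-3p, that of m0133-5p is the seed of miR-881-3p and that of m0409-3p is the seed of miR-367-5p. m0450-5p had 113 and 58 reads (-0.88, -1.37 to -0.42), m0133-5p 25 and 7 (-1.69, -3.21 to -0.51) and m0326-5p 25 and 11 (-1.07, -2.28 to -0.03), all lower with manganese beyond their intervals. The intervals of m0409-3p with 13 and 13 reads (0.08, -1.15 to 1.30), m0483-5p with 135 and 139 (0.12, -0.23 to 0.47) and m0390-5p with 193 and 204 (0.16, -0.14 to 0.45) spanned 0. The other members with a known seed at this depth share it with high-numbered miRBase entries for the most part, such as m0258-5p to m0261-5p, which are 1 sequence in 4 rows with 22 and 18 reads and the seed of miR-6966-3p. A shared seed says nothing here about targets.

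Both arms were listed for 46 of the 486 hairpins, and 440 had 1 arm only. Two-sided hairpins are the usual evidence for cutting by Dicer, which leaves a guide strand and its partner. The 5p arm held more reads in 27 hairpins and the 3p arm in 18, with 1 equal. The median share of the major arm was 77.8%, against 91.6% over 286 mouse-named pairs, and it reached 90% in 12 hairpins. The smallest value listed above 0 is 2, so a listed minor arm limits this share in hairpins with few reads. Read depth was not matched between the predicted and the mouse-named pairs, so the 77.8% and 91.6% cannot be compared directly. The computed pairing energy of the arms had a median of -22.9 kcal/mol (quartiles -28.3 and -18.3, range -46.1 to -9.90), beside -20.95 for the mouse-named pairs (quartiles -24.0 and -18.0).

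Among the 5 hairpins with most reads, m0133 had 25 and 7 reads on the 5p arm and 303 and 256 on the 3p arm. The last 9 bases of its 3p sequence are also the first 9 of its 5p sequence. Whether these pieces overlap in the genome was not tested, since no genome was used, so the arm labels of m0133 are uncertain. m0483 had 135 and 139 reads on the 5p and 9 and 5 on the 3p arm, so the 5p share was 93.8% untreated and 96.5% with manganese. m0450 had 113 and 58 reads on the 5p arm, and 0 and 10 on the 3p arm. m0092 was the most even of these, with 39 and 55 reads on the 5p arm (log2 ratio 0.57, -0.05 to 1.20) and 28 and 26 on the 3p arm (-0.03, -0.86 to 0.79). m0120 had 0 and 2 reads on the 5p and 12 and 113 on the 3p arm. The leading arm differed between the libraries in 4 hairpins, and 28 of the 46 had 20 or more reads. Only m0356 did so at that depth, with 14 and 8 reads on the 5p arm and 9 and 11 on the 3p arm, which are too few reads to order the arms.

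Some members lay close to gene starts. In the RefSeq windows from 250 bases before to 50 bases after the start of a gene (32851 windows, GRCm38.p6), 34 members (6.39%) had an exact match on either strand, against 27 (2.85%) of the mouse-named rows. By strand, 9 matched the strand of the gene and 26 the opposite strand, so that 1 member is counted on both. These are counts of rows, and some rows repeat a sequence, all of them on the opposite strand. At Gm3500, m0097-5p to m0100-5p and m0104-5p are the same sequence, and m0097-3p to m0100-3p are another. At Zfp959, m0155-3p and m0172-3p are the same sequence. The repeats raise both the share and the count on the opposite strand. Of the 34, those with 20 or more reads were m0095-3p at Il6st (chr13:112463914-112463935), m0323-3p at Elapor2 (chr5:9265943-9265966), m0377-3p at Cdkn1b (chr6:134920214-134920235), m0470-3p at Cyb561d2 (chr9:107541868-107541888) and m0204-3p at Disp1 (chr1:183221615-183221638). All 5 began before the gene start, on the gene's strand for Elapor2 and Cyb561d2 and opposite to it for the other 3. Il6st encodes the shared receptor subunit of the interleukin 6 family, and Cdkn1b encodes a cyclin-dependent kinase inhibitor. Of the 5, m0323-3p, with 49 and 27 reads, was lower with manganese beyond counting error (-0.77, -1.52 to -0.08), and the intervals of the other 4 spanned 0, for example m0377-3p with 22 and 31 reads (0.56, -0.26 to 1.43).

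The genes that make and load miRNAs were read in the total RNA libraries, for which 7.26% of 11872 genes with 20 or more reads were at least 2-fold higher with manganese and 1.7% at least 2-fold lower. Of the 26 genes listed for this pathway, 2 were at least 2-fold higher and 0 lower. The nuclear cutter Drosha had 1729 and 1986 reads (log2 ratio 0.14, 0.04 to 0.23), and its partner Dgcr8 had 280 and 352 (0.27, 0.04 to 0.50). The exporter Xpo5 had 1915 and 2121 (0.08, -0.01 to 0.17). The median of all genes was 0.18. Other genes of the nuclear steps lay farther from it: the helicase gene Ddx5 had 3834 and 7053 reads (0.82, 0.76 to 0.87), and Srrt, whose protein works with the cap-binding complex, had 1304 and 1058 (-0.37, -0.48 to -0.25).

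Among the genes of the later steps, Dicer1 had 418 and 620 reads (0.50, 0.32 to 0.69), while Tarbp2, which encodes a partner of Dicer, had 1469 and 1078 (-0.51, -0.63 to -0.40), the lowest of the list. Ago2, the slicing Argonaute, had 2934 and 4674 (0.61, 0.54 to 0.67). Ago4 had only 17 and 52 reads (1.52, 0.74 to 2.43), and Tnrc6b, a scaffold of the silencing complex, had 307 and 670 (1.06, 0.86 to 1.26). Khsrp, which binds precursor loops, had 6372 and 5417 (-0.30, -0.35 to -0.25). The median of the 26 was 0.44, and 22 lay above a log2 ratio of 0, or 16 above the median of all genes. The counts of Ago2, Ddx5 and Tnrc6b are estimates that were not whole, so reads shared with other transcripts were divided there.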

How the data were processed

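The authors deposited 1 miRNA table, with whole read counts and TPM values per listed sequence for the untreated and the Mn-treated small RNA library, and an mRNA table with estimated counts per gene. The deposited TPM values imply library totals of 10914338 and 10402153 tags. The tools named without role or order, per the submitters' processing notes, are Bowtie2, StringTie and fastp 0.18.0, with the build mm9. The miRNA caller is not given in the sources used here. Identifiers are printed without their leading word. Estimated counts were rounded to whole numbers.

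Ratios are counts plus 0.5 over the column total, for 20 or more reads in sum. Intervals are exact conditional binomial (Clopper-Pearson, 95%) and cover counting error only. With 1 library per group no test was made. The table lists no value of 1, so the planned bound against 3 counts for a listed 0 was replaced by the listed values. The members and lists were chosen with earlier results of these data known. Named members are the 10 with most reads and the 6 highest and 6 lowest ratios. Also named are the 3 with most reads among those at 0 in each library. So are the 5 two-arm hairpins with most reads and the 2 members on each side of the limit. Members named for motifs, overlaps, seeds or gene starts were chosen after their values were seen. All seed matches with 20 or more reads had been planned, but only some are named, picked for the miRNA whose seed they share. For the pathway the 3 highest and 3 lowest genes and 5 core genes are named; Zcchc11 and Zcchc6 were found under newer symbols. Sequences were compared with RefSeq mouse tables (GRCm38.p6) of 1005 hairpins and with gene-start windows; no genome was used. Pairing energies came from ViennaRNA 2.7.2. TMM factors came from edgeR 4.0.16 in R 4.3.3; other steps used Python 3.11.15, pandas 2.3.3 and SciPy 1.17.1. The ratio steps were tested on simulated counts. Other scalings, count minimums, a pseudocount of 1, 1 row per distinct sequence and a list without overlaps were tried.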

Additional observations from a re-analysis of the deposited data

How the results depend on the processing

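Of the members' counts past 2-fold, the other scalings, a pseudocount of 1, 1 row per distinct sequence and leaving out the overlaps each gave 6 or 7 higher and between 19 and 22 lower. The count minimum changed them most: with 10 reads 30 were higher and 49 lower, with 50 reads 1 and 3, and with no minimum 101 and 146, where fewer reads per row widen the ratios by construction. With TMM factors the median log2 ratio was -0.25, and it was negative under every alternative run. The share of reads was 0.121% untreated and 0.122% with manganese over the TPM totals, 0.135% and 0.138% over the mouse-named reads, and 0.121% and 0.122% with 1 row per distinct sequence. Members in the untreated library only numbered 8 with at least 10 reads and 0 with at least 20, and in the Mn-treated library only 3 and 0. Of 29 single values, only m0034-3p, whose interval spans 0, changed sign under the other scalings and pseudocount, going from 0.06 to -0.01 with the median ratio and -0.03 with TMM factors. For the pathway genes, scaling by the median ratio left 1 gene at least 2-fold higher and a median of 0.25, and a minimum of 100 reads left 1, without Ago4. No paired analysis was possible because each group has 1 library. Depth limits most members: 395 of 532 have under 20 reads.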

Other observations

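Many predicted rows repeat a sequence. The 532 rows hold 497 distinct sequences, and 18 sequences are listed in 53 rows, up to 6 rows for 1 sequence. In all but 1 of these the counts are equal between the rows. The exception is the sequence listed as m0153-3p, with 40 and 21 reads, and m0171-3p, with 32 and 21 reads. Some repeated sequences carry both arm labels, such as m0302-5p with m0303-3p and m0457-3p with m0458-5p. The arm label is thus not fixed by the sequence.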
